A study of Homo sapiens with 18 samples.

Results

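The NF-kB family was followed through 10 genes in a human breast epithelial line before and after transformation, each with and without an inhibitor of TFIIH. The genes were taken by symbol and gene ID from the RNA-Seq tables, as 10 of the 23604 genes listed there. They are the Rel subunits RELA, RELB, REL, NFKB1 and NFKB2, the inhibitors NFKBIA, NFKBIB and NFKBIE, the nuclear regulator NFKBIZ, and TNFAIP3. The cells were MCF10A-ErSrc, which carry a v-Src kinase fused to the oestrogen receptor so that tamoxifen switches the kinase on. Cultures without tamoxifen are named NT and transformed cultures TAM, and all of them carried the fusion. NT and TAM cells received DMSO, and NT + TPL and TAM + TPL cells received triptolide (TPL), for 4 h in each case. TPL is a small molecule that binds XPB, the translocase subunit of TFIIH. Each group had 2 RNA-Seq libraries, and RNAPII ChIP-Seq was made in the same 4 conditions, with 2 ChIP samples in each and 2 inputs, which makes 18 samples.

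NF-kB is a family of dimeric transcription factors that rests in the cytoplasm while bound to IκB proteins. Signals from cytokine and Toll-like receptors activate the IKK kinases, which mark IκB for degradation and free the dimers to enter the nucleus. Several inhibitors are themselves NF-kB target genes and end the response in a negative feedback loop, and in the ErSrc model NF-kB is known as part of the inflammatory circuit that accompanies transformation.

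Each RNA-Seq library held between 7461309 and 8349448 expected counts, which are reads assigned to genes by estimation. FPKM are reads scaled to transcript length and to the mapped reads of the library, and they are the unit for every level below. All 10 basal and other breast epithelial genes examined reached at least 1 FPKM in at least 1 library. So did 3 of 5 immune, 3 of 4 fibroblast and 1 of 3 endothelial genes, so this count alone does not show epithelial identity. The epithelial genes had a summed level far above that of each other marker list. It lay between 17742 and 19577 FPKM in NT, 8081 and 8394 in TAM, 11521 and 14614 in NT + TPL, and 4386 and 4775 in TAM + TPL. KRT5, a basal keratin, had 6249.55 and 5776.13 FPKM in NT and 1308.36 and 1307.94 in TAM. TP63, a basal transcription factor, was between 13.16 and 24.19 in the DMSO libraries and between 0.28 and 0.89 with TPL. The markers did not all move this way. KRT6A had 4101.44 and 3969.42 FPKM in NT and 4062.49 and 4623.26 in TAM. KRT8 had 297.51 and 254.67 FPKM in NT and 439.55 and 387.94 in NT + TPL. ITGB4 had 365.73 and 392.77 FPKM in NT and 723.82 and 532.83 in NT + TPL. PTPRC, the pan-leukocyte marker, stayed between 0.16 and 2.14 FPKM. Of the endothelial genes, CDH5 was listed in no library and PECAM1 lay between 0.46 and 1.69 FPKM. The highest of the fibroblast genes was DCN, between 3.67 and 6.69 FPKM. Of the luminal hormone receptors, ESR1 had 199.65 and 248.49 FPKM in NT and 95.30 and 68.49 in TAM. With TPL, ESR1 had 127.97 and 78.70 FPKM in NT + TPL and 36.94 and 39.79 in TAM + TPL. All cultures carried v-Src fused to the oestrogen receptor, and whether reads of the fusion entered the ESR1 level was not tested. The ESR1 values are therefore not shown to be those of the cells' own gene. PGR reached 0.01 FPKM at most. CD68, a lysosomal protein used as a macrophage marker, had 47.20 and 47.06 FPKM in NT, 301.14 and 280.55 in TAM, 88.96 and 76.98 in NT + TPL, and 472.93 and 407.40 in TAM + TPL. CD14, a monocyte marker, had 10.94 and 9.18 FPKM in NT and 7.57 and 6.80 in TAM. The summed level of the immune markers examined, most of it CD68, lay between 56.58 and 58.72 FPKM in NT, 288.1 and 309 in TAM, 93.84 and 108.9 in NT + TPL, and 417 and 480.1 in TAM + TPL, and the part of these markers in the results was not tested. Values describe the share of a library, so each rise or fall is relative to the other RNAs. Neither the RNA per cell nor the number of cells can be read from them.

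The sequences upstream of the main start sites are shown because several of these genes are known NF-kB targets. RefSeq holds 8 of the 10 genes in the promoter table used here, and RELB and NFKBIE are not among them. A κB element was searched on both strands from 250 bases before to 50 bases after each start. One form was GGNNTTTCC and the other was the κB consensus, and these overlap. At least 1 form was found in 7 of the 8 genes, against 15.6% of 35116 promoters of the same length. The units differ: each of the 8 genes was counted by the entry nearest its main start. The 35116 promoters hold several entries for some genes. For GGNNTTTCC alone the count was 7 of 8 against 6.26%, and for the κB consensus 7 of 8 against 11.3%. Below are the 250 bases before the start of 6 genes on hg19, in the direction of transcription, with the matches in capitals. NFKBIA lies at chr14:35873956-35874205 on the minus strand, TNFAIP3 at chr6:138188146-138188395, NFKBIZ at chr3:101568108-101568357, NFKB1 at chr4:103422266-103422515 and NFKB2 at chr10:104155212-104155461 on the plus strand, and RELA at chr11:65430388-65430637 on the minus strand.
NFKBIA: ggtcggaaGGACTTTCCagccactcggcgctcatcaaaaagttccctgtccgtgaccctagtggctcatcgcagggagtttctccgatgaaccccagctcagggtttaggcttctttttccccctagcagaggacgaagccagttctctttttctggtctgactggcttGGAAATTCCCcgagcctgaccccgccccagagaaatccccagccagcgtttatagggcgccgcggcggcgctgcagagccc
TNFAIP3: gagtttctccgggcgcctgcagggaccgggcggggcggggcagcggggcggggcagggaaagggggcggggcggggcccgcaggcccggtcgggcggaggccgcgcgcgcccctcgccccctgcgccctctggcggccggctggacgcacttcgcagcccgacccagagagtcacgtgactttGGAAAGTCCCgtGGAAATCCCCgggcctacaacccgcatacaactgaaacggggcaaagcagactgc
NFKBIZ: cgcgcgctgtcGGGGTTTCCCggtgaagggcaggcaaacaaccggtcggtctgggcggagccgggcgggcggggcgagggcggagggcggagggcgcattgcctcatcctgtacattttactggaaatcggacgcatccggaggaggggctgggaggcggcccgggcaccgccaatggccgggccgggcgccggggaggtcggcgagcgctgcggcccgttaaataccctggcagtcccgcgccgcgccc
NFKB1: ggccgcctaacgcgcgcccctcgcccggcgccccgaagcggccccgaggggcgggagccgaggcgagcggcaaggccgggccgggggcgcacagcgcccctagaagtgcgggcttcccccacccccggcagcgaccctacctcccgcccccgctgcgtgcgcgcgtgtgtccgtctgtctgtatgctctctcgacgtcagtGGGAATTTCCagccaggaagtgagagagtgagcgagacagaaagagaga
NFKB2: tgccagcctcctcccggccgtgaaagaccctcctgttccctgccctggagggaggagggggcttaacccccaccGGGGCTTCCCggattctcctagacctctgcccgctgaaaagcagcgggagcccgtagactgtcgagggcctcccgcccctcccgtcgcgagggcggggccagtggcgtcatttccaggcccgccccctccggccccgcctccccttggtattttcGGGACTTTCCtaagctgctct
RELA: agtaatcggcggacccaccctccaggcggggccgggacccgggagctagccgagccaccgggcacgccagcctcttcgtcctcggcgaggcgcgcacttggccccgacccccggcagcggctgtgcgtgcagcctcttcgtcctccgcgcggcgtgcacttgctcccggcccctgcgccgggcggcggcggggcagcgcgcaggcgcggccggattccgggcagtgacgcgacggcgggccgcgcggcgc
NFKBIA had matches that began 81 and 242 bases before its start, and TNFAIP3 had a pair at 67 and 55. NFKBIZ had its match at 239 bases, NFKB1 at 49, and NFKB2 at 21 and 176. REL had matches at 47 and 46 bases that overlap, and NFKBIB at 28 and 27 that overlap, with a further match 38 bases after its start. RELA had none, which says only that these letters are not in this window. A TATAAA element was present in 1 of the 8, NFKBIA, in reverse orientation, against 11.5% of all promoters.

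The largest falls with TPL were those of NFKBIA, TNFAIP3 and NFKBIZ. All 10 genes passed the filter on low counts. In NT cells 5 of the 10 genes fell and 1 rose past an adjusted p of 0.05, and in TAM cells 4 fell and none rose. Over all 16948 genes tested, 19.8% fell and 17.2% rose in NT cells, and 18.6% fell and 14.3% rose in TAM cells. The test was the quasi-likelihood test of edgeR, fitted to all 4 groups, and p values were adjusted by Benjamini-Hochberg over all genes. At the thresholds of the study, where the adjusted p may reach 0.001 and the log2 change must reach 1.2, 3 genes fell in NT cells and 2 in TAM cells, and none rose. Of all genes, 2.71% fell and 1.22% rose at this level in NT cells, and 2.04% fell and 0.844% rose in TAM cells. Here the thresholds were applied to the edgeR fit, and the study reported larger shares of changed genes from its own analysis. With TPL the 10 genes had a median log2 fold change of -0.71 (NT cells) and -0.76 (TAM cells), beside 0.09 and 0.05 over all genes. Among the 5 Rel subunits the median was -0.44 for NT and -0.27 for TAM cells, and among the other 5 genes it was -2.45 and -2.22. Scaling to equal GAPDH turned the NT count into 6 that fell and 0 that rose, while over all genes it gave 1358 that rose and 4381 that fell, in place of 2919 and 3355. Upper quartile scaling left the NT count at 1 that rose and 5 that fell but gave 4088 rises and 2625 falls over all genes, and 3613 and 2298 in place of 2431 and 3159 in TAM cells.

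**Figure D1:**
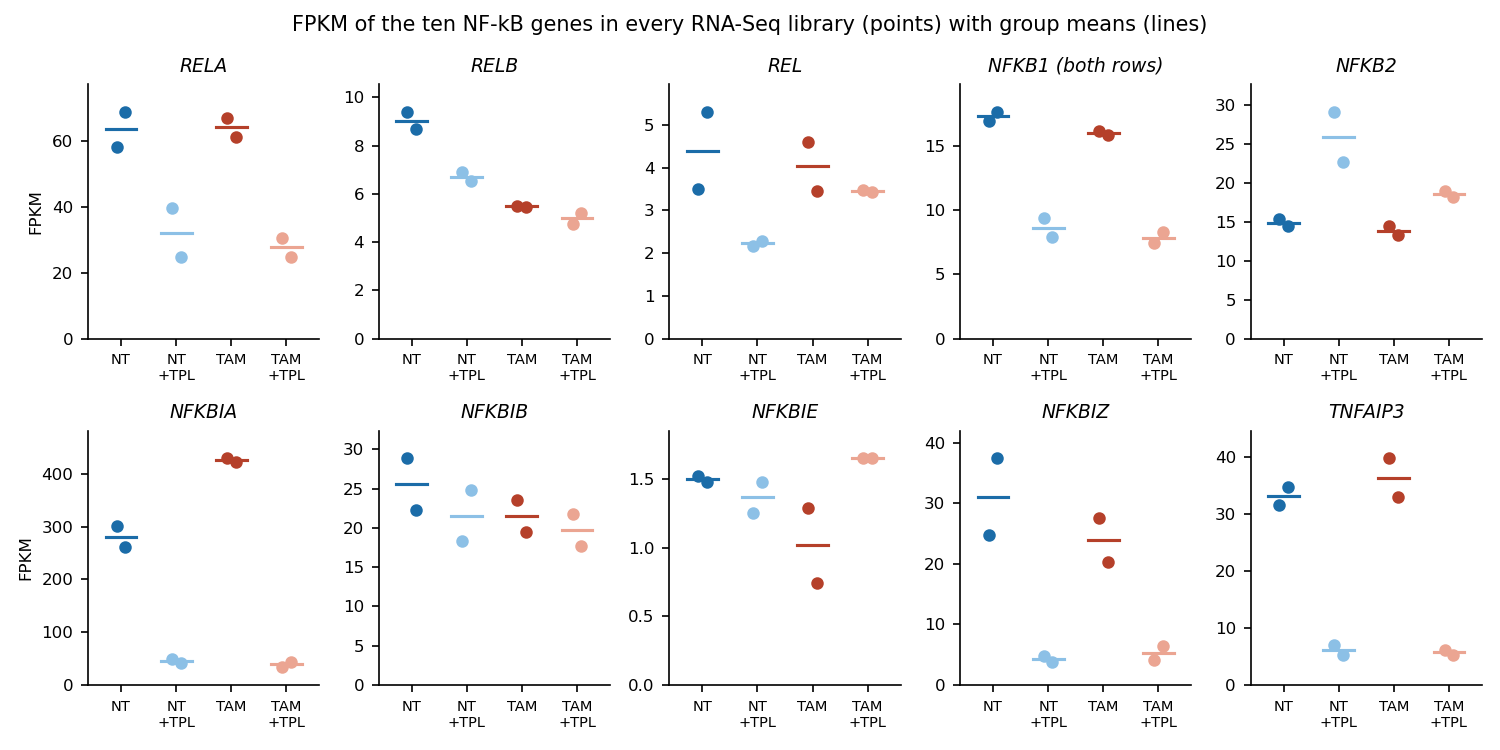
FPKM (vertical axis, from 0) of the 10 genes in each of the 4 groups, with 1 point per library and a line at the mean of the 2 libraries. NFKBIA, NFKBIZ and TNFAIP3 sit far lower in every TPL library than in any DMSO library, and NFKB1 is drawn as the sum of its 2 rows.

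NFKBIA encodes IκBα, the main cytoplasmic inhibitor of RELA dimers and a classical NF-kB target. It was the most abundant of the 10, with 300.59 and 261.04 FPKM in NT, 429.38 and 423.14 in TAM, 49.01 and 41.55 in NT + TPL, and 34.80 and 42.91 in TAM + TPL. Its levels were thus highest in TAM, then NT, and lowest in both TPL groups, which overlapped each other. The log2 fold change with TPL was -2.64 (SE 0.16, 95% interval -3.02 to -2.26) in NT cells, a 6.24-fold fall with an adjusted p of 0.000205. In TAM cells it was -3.50 (SE 0.166, 95% interval -3.90 to -3.11), an 11.3-fold fall with an adjusted p of 0.000234. All alternative settings kept both falls below an adjusted p of 0.05, with log2 fold changes between -3.00 and -2.42 and between -3.65 and -3.26.

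The gene occupies chr14:35870285-35873955 on the minus strand of hg19. The share of the summed FPKM of the 10 genes that came from NFKBIA was 61.3 and 55.3% in NT and 68.2 and 71% in TAM, and it was 29.2 and 29.5% in NT + TPL and 26 and 32% in TAM + TPL.

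TNFAIP3 encodes A20, a ubiquitin-editing enzyme that switches off signalling upstream of IKK. It had 31.50 and 34.77 FPKM in NT, 39.75 and 32.97 in TAM, 7.06 and 5.27 in NT + TPL, and 6.20 and 5.33 in TAM + TPL. NT and TAM overlapped, and so did the TPL groups, with a wide gap between DMSO and TPL libraries. The log2 fold change with TPL was -2.45 (SE 0.184, adjusted p = 0.000342) in NT cells and -2.69 (SE 0.186, adjusted p = 0.00034) in TAM cells, which are 5.45-fold and 6.47-fold falls. Over the alternatives they lay between -2.82 and -2.22 and between -2.83 and -2.45. The gene lies at chr6:138188351-138204451 on the plus strand.

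NFKBIZ encodes IκBζ, an atypical nuclear IκB protein that acts with NFKB1 dimers as a cofactor at a subset of inflammatory genes. Its levels were 24.72 and 37.41 FPKM in NT, 27.55 and 20.33 in TAM, 4.86 and 3.75 in NT + TPL, and 4.13 and 6.45 in TAM + TPL. The DMSO groups overlapped and the TPL groups overlapped, and no DMSO library came near a TPL library. The log2 change with TPL was -2.88 (SE 0.312, adjusted p = 0.000971) in NT cells and -2.22 (SE 0.303, adjusted p = 0.00252) in TAM cells. In this fit the fall in TAM cells passed an adjusted p of 0.05 but not the study's thresholds. The gene lies at chr3:101546835-101579866 on the plus strand.

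The other cytoplasmic inhibitors did not pass the test. NFKBIB, which encodes IκBβ, had 28.88 and 22.32 FPKM in NT, 23.62 and 19.45 in TAM, 18.39 and 24.77 in NT + TPL, and 21.72 and 17.68 in TAM + TPL. All 4 groups overlapped at least 1 neighbour, and the TPL log2 fold changes were -0.27 (95% interval -0.87 to 0.34, adjusted p = 0.437) and -0.24 (95% interval -0.85 to 0.37, adjusted p = 0.498). NFKBIE, which encodes IκBε, was near the lower limit of the assay, with levels from 0.74 to 1.65 FPKM over the 8 libraries. Its TPL log2 fold changes were -0.14 (95% interval -1.10 to 0.83, adjusted p = 0.815) in NT and 0.65 (95% interval -0.32 to 1.62, adjusted p = 0.256) in TAM cells. These intervals span falls and rises, so a change of moderate size could not be told from them.

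RELA encodes p65, the subunit with the strong activation domain in the canonical dimer. It had 58.19 and 69.00 FPKM in NT, 67.11 and 61.41 in TAM, 39.64 and 24.70 in NT + TPL, and 30.68 and 24.93 in TAM + TPL. The DMSO groups overlapped each other and stood above both TPL groups, which also overlapped. The log2 change with TPL was -0.98 (SE 0.224, adjusted p = 0.0152) in NT and -1.25 (SE 0.226, adjusted p = 0.00716) in TAM cells. Without NT replicate 2 the adjusted p in NT cells was 0.0851, and without TAM + TPL replicate 2 that in TAM cells was 0.0607. The NT fall also missed the threshold in the fit of the NT and NT + TPL libraries alone, with an adjusted p of 0.0529.

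REL encodes c-Rel, a subunit used above all in lymphoid cells, and was low here. It had 3.49 and 5.31 FPKM in NT, 4.60 and 3.46 in TAM, 2.16 and 2.29 in NT + TPL, and 3.47 and 3.44 in TAM + TPL. The NT libraries stood above the NT + TPL libraries, while TAM and TAM + TPL overlapped. Under TPL it changed on the log2 scale by -0.98 (SE 0.244, adjusted p = 0.0205) in NT and by -0.27 (SE 0.239, adjusted p = 0.418, not passed) in TAM cells. The difference between these effects was 0.71 (SE 0.341, adjusted p = 0.505), so the effects were not shown to differ. The NT fall had an adjusted p of 0.113 without NT replicate 2, 0.067 without NT + TPL replicate 1 and 0.0567 without NT + TPL replicate 2, and 0.0603 in the fit of the NT and NT + TPL libraries alone.

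RELB, the subunit that pairs with p52 in the non-canonical pathway, had 9.41 and 8.68 FPKM in NT, 5.50 and 5.46 in TAM, 6.89 and 6.53 in NT + TPL, and 4.75 and 5.21 in TAM + TPL. The groups did not overlap, and their order from high to low was NT, then NT + TPL, then TAM and last TAM + TPL. Its TPL log2 fold changes were -0.44 (95% interval -0.85 to -0.02, adjusted p = 0.0924) and -0.19 (95% interval -0.61 to 0.24, adjusted p = 0.45), and neither passed.

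NFKB2 encodes p100, the precursor of p52 and itself an inhibitor with IκB-like repeats, and it was the gene that rose. It had 15.38 and 14.47 FPKM in NT, 14.42 and 13.29 in TAM, 29.18 and 22.65 in NT + TPL, and 18.99 and 18.23 in TAM + TPL. Its TPL libraries stood above its DMSO libraries in either state. The log2 fold change was 0.79 (SE 0.147, 95% interval 0.44 to 1.13, adjusted p = 0.00731) in NT cells and 0.38 (SE 0.147, 95% interval 0.03 to 0.73, adjusted p = 0.0887) in TAM cells. The difference between the effects was -0.41 (SE 0.207, adjusted p = 0.527). The NT rise was 0.73 with an adjusted p of 0.0576 without NT replicate 2, and 0.42 with an adjusted p of 0.0932 with equal GAPDH, and the TAM value passed in 5 of 21 alternatives. The ratio of NFKB2 to RELA in FPKM was 0.264 and 0.21 in NT and 0.215 and 0.216 in TAM, against 0.736 and 0.917 in NT + TPL and 0.619 and 0.731 in TAM + TPL.

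NFKB1 encodes p105, the precursor of p50, and its reads were split between 2 rows of the tables. One row is named by the gene ID and the other by a RefSeq transcript accession of the same gene. The row named by the gene ID held 2.31 and 4.95 FPKM in NT, 16.17 and 3.09 in TAM, 3.50 and 2.90 in NT + TPL, and 2.82 and 4.36 in TAM + TPL. The TAM libraries disagreed by more than any other pair of this gene. In TAM replicate 1 the other row was not listed and the row named by the gene ID had 559 expected counts, while in TAM replicate 2 the rows had 107 and 418. The sums of both rows were 546 and 571 in NT, 559 and 525 in TAM, 288 and 240 in NT + TPL, and 223 and 274 in TAM + TPL.

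The summed counts of TAM replicates thus lay close together, and in each state the TPL libraries stood well below the DMSO libraries. On the row named by the gene ID the TPL effect on the log2 scale was -0.19 (SE 0.729, adjusted p = 0.858) in NT and -1.47 (SE 0.723, adjusted p = 0.157) in TAM cells. With the rows of each symbol summed before the fit, a setting chosen after seeing the data, it was -1.0 (SE 0.167, adjusted p = 0.000631) in NT and -1.08 (SE 0.168, adjusted p = 0.000434) in TAM cells. When 1 library was left out of the summed fit these lay between -1.09 and -0.91 and between -1.16 and -1.01, with adjusted p values of up to 0.0068 and 0.0115. The summed fit gave 6 genes of the 10 that fell with TPL in NT and 5 in TAM cells, against 24.1% and 23.5% of all genes in the same fit. None of the other 9 genes had another row.

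**Figure D2:**
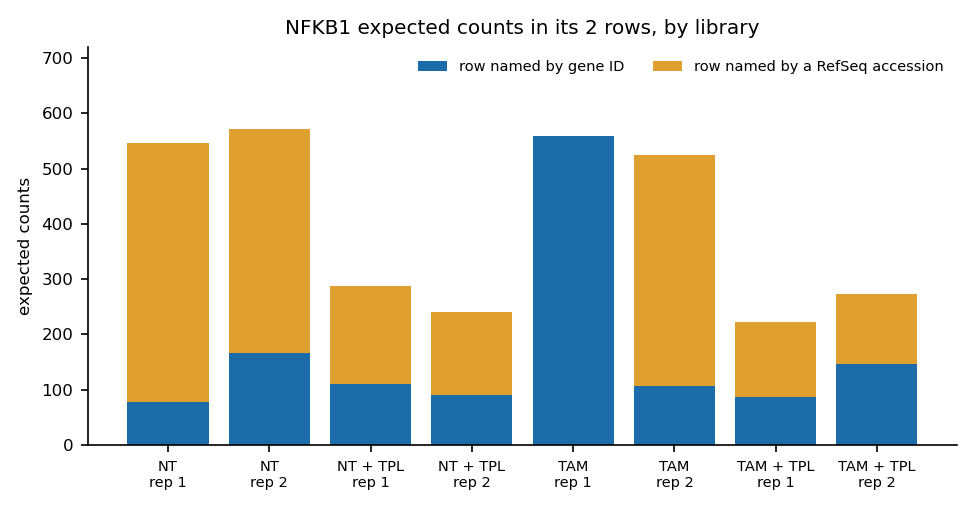
Expected counts of NFKB1 (vertical axis, from 0) in each of the 8 RNA-Seq libraries, stacked from the row named by the gene ID and the row named by a RefSeq accession. The split differs between libraries, and the stacked heights are 525 to 571 in the DMSO libraries and 223 to 288 in the TPL libraries.

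With both NFKB1 rows included, RELA was the most abundant subunit, with 56.3 and 59.9% of the summed FPKM of the 5 subunits in NT and 62.3 and 61.8% in TAM. In the TPL groups this share was 45.4 and 38.6% in NT + TPL and 47 and 41.5% in TAM + TPL, and that of NFKB2 was 33.5 and 35.4% and then 29.1 and 30.3%, against 12.6 to 14.9% in the DMSO libraries. The 3 cytoplasmic inhibitors summed to 3.2 and 2.47 times the 5 subunits in NT and to 4.21 and 4.46 times in TAM. They summed to 0.787 and 1.06 times in NT + TPL and to 0.891 and 1.04 times in TAM + TPL. The summed inhibitor mRNAs therefore outweighed the subunit mRNAs in every DMSO library and lay near parity or below it with TPL. NFKBIA was the largest part of the inhibitor sum in every library, and NFKBIB and NFKBIE did not pass the test with TPL.

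**Figure D3:**
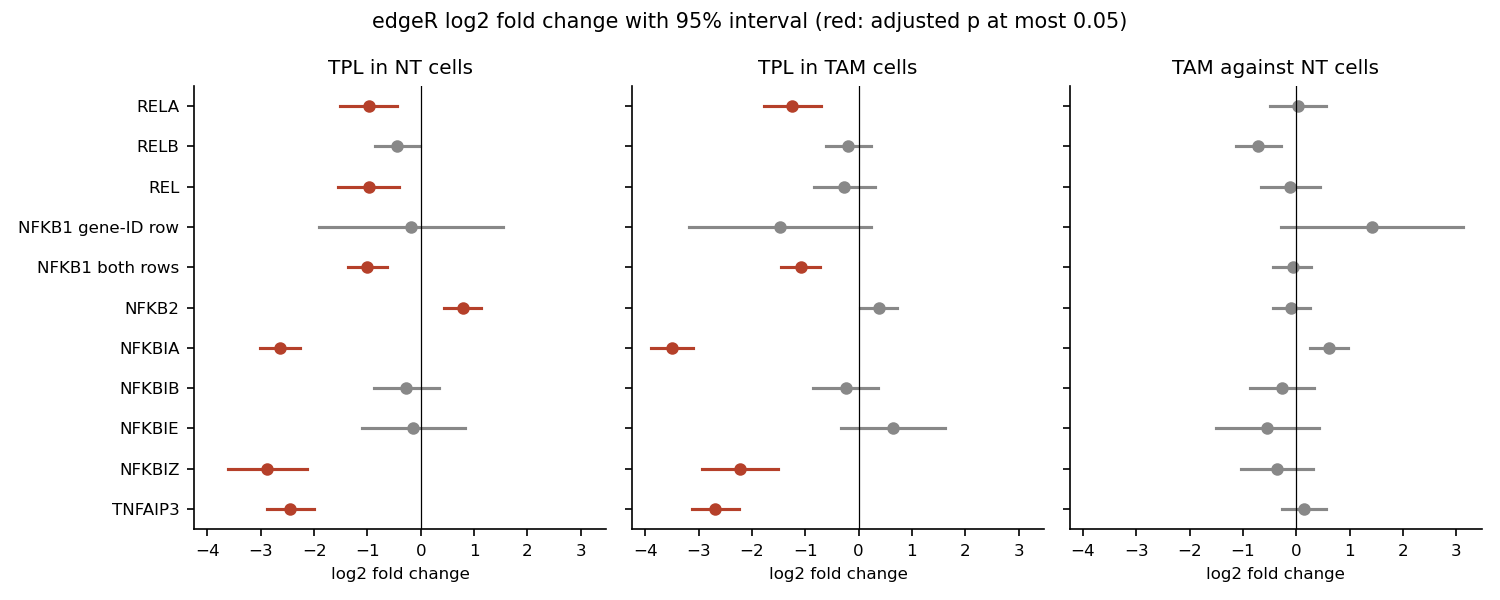
Log2 fold change from edgeR (horizontal axis) with its 95% interval for each gene, for TPL in NT cells, TPL in TAM cells and TAM against NT cells, in red where the adjusted p is at most 0.05. NFKBIA, NFKBIZ and TNFAIP3 lie between -3.50 and -2.22 in both TPL panels, and no gene is red for TAM against NT.

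Transformation itself was compared in the DMSO libraries. None of the 10 genes passed in edgeR's test, while 3.46% of all genes were higher and 3.39% lower in TAM. At an unadjusted p under 0.05 there were 2 of the 10, against 19.9% of all genes, and DESeq2 called 2, against 12.4% of the genes it tested. NFKBIA was 0.62 higher on the log2 scale in TAM (SE 0.15, 95% interval 0.26 to 0.97, adjusted p = 0.059), with both TAM libraries above both NT libraries. It passed in 6 of 21 alternatives, DESeq2 among them with an adjusted p of 0.000209, and the adjusted p ranged from 0.000209 to 0.56. Without NT + TPL replicate 1 its adjusted p was 0.0432, and without NT + TPL replicate 2 it was 0.0438. RELB had a log2 difference of -0.71 (SE 0.177, 95% interval -1.13 to -0.29, adjusted p = 0.0662) and passed in 4 of 21 alternatives, DESeq2 among them with an adjusted p of 0.0389.

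RELA had a log2 difference of 0.03 (95% interval -0.49 to 0.55, adjusted p = 0.973) and TNFAIP3 one of 0.14 (95% interval -0.26 to 0.55, adjusted p = 0.721), and both turned negative with equal GAPDH. GAPDH, the reference of that setting, itself had 33602 and 27938 expected counts in NT and 43397 and 42801 in TAM. NFKB1, with its rows summed, had a log2 difference of -0.07 (SE 0.163, adjusted p = 0.848), in place of 1.42 (SE 0.721, adjusted p = 0.345) on the row named by the gene ID.

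Under TPL, TAM and NT cells were also compared. None of the 10 genes passed, against 2.83% of all genes higher and 4.21% lower in TAM + TPL. At an unadjusted p under 0.05 there were 3 of the 10, against 21.3% of all genes, and DESeq2 called 1, against 14.7%. The gene nearest the threshold was NFKB2, with a log2 difference of -0.50 (SE 0.146, adjusted p = 0.0979). NFKBIA differed by -0.24 (95% interval -0.61 to 0.12, adjusted p = 0.428). The test of the difference between the TPL effects gave -0.86 for NFKBIA (SE 0.215, 95% interval -1.37 to -0.35, adjusted p = 0.243) in edgeR and -0.85 (adjusted p = 0.00422) in DESeq2. No gene of the 10 passed it in edgeR, and of all genes 0.0885% were higher and 0.0767% lower. At an unadjusted p under 0.05 there was 1 of the 10, against 10.6% of all genes, and DESeq2 called 1, against 4.08%.

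RNAPII occupancy at the start sites was read from the 4 lists of peaks that contain a start. The lists hold 11222 peaks for NT, 11056 for TAM, 8653 for NT + TPL and 8464 for TAM + TPL, without heights or scores and with 1 list per condition, so no test was made. The main start of 8 of the 10 genes lay in a peak in the NT list, 8 in the TAM list, and 9 in each TPL list. Over 14821 genes the shares were 63.8% for NT, 56.2% for TAM, 50.9% for NT + TPL and 50% for TAM + TPL. Of the starts listed in NT, 23.1% were absent in NT + TPL, and of those listed in TAM, 18.9% were absent in TAM + TPL, but none of the 10 genes was among either. RELB was listed in TAM + TPL only and NFKBIE in NT + TPL only. The peak names carry a different cutoff label in the TAM list than in the other 3, and how this bears on widths was not tested.

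The NFKBIA peak was the longest of the 10 in every list. In NT it spanned chr14:35868339-35874272, 5934 bases, and reached 5616 bases past the start, beyond the end of the gene. In NT + TPL it spanned 1588 bases and reached 1305 bases past the start. In TAM it spanned 3058 bases and in TAM + TPL 2502 bases, reaching 2788 and 2235 bases past the start. The median width of all peaks was 632 bases for NT, 406 for TAM, 553 for NT + TPL and 455.5 for TAM + TPL. The peaks of TNFAIP3, whose mRNA fell with TPL too, were short and close in width, with 400 bases for NT, 349 for TAM, 420 for NT + TPL and 379 for TAM + TPL. Those of NFKBIZ spanned 942, 975, 1080 and 1045 bases in the same order.

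**Figure D4:**
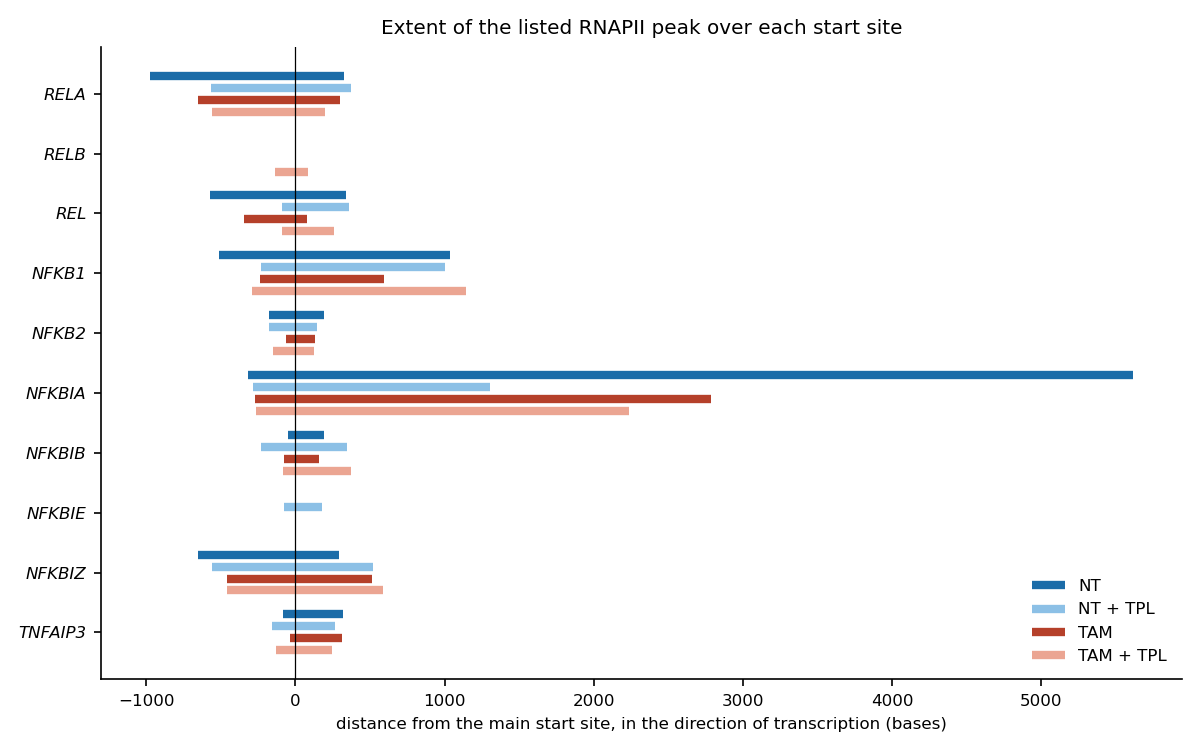
Extent of the listed RNAPII peak that contains the main start of each gene (horizontal axis, bases from the start in the direction of transcription), with 1 bar per condition. The NFKBIA bar reaches 5616 bases past the start in NT and 1305 in NT + TPL, while the bars of the other genes stay within 1145 bases.

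NFKB2, the gene that rose, kept a short peak of 370 bases for NT, 199 for TAM, 325 for NT + TPL and 279 for TAM + TPL. RELA had 1300 and 937 bases in NT and NT + TPL and 950 and 755 in TAM and TAM + TPL. The peak of NFKB1 had 1551 bases for NT and 833 for TAM with DMSO, and 1237 and 1435 with TPL. The κB matches of NFKBIA, NFKBIZ, NFKB1, REL and NFKBIB lay inside the peak in all 4 lists, as did the NFKB2 match at 21 bases. Both of TNFAIP3 lay outside the TAM peak, and the one of NFKB2 at 176 bases lay inside the NT and NT + TPL peaks only.

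The wider pathway was read from 4 gene lists compiled from general knowledge. Each count stands against the shares of all genes given above, 19.8% that fell and 17.2% that rose in NT cells and 18.6% and 14.3% in TAM cells, and each median against 0.09 and 0.05. None of the list genes named here passed edgeR's test of the difference between the TPL effects, so a gene that passed in 1 state is not shown to differ between states. Of 31 textbook NF-kB target genes, 26 were tested, of which 13 fell and 6 rose with TPL in NT cells, and 14 fell and 3 rose in TAM cells. Their medians on the log2 scale were -1.65 (NT cells) and -1.33 (TAM cells). The falls were more frequent than over all genes, and the rises lay nearer to the share of all genes. CXCL1, a neutrophil-attracting chemokine, fell by 5.69 on the log2 scale in NT cells (SE 0.499, adjusted p = 0.000518), from 141.83 and 149.03 FPKM to 4.32 and 1.35. In TAM cells it fell by 6.27 (SE 0.486, adjusted p = 0.000413), from 418.01 and 432.27 to 8.06 and 3.48 FPKM. Its relative CXCL2 fell by 4.87 in NT cells (adjusted p = 0.000232) and fell by 6.30 in TAM cells (adjusted p = 0.000234).

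Not every target followed. GADD45B, a stress-induced gene of the GADD45 family, rose by 3.17 on the log2 scale in NT cells (SE 0.208, adjusted p = 0.000246), from 17.20 and 25.53 FPKM to 184.71 and 200.14, and by 2.77 in TAM cells (SE 0.205, adjusted p = 0.000385). IRF1, a transcription factor of the interferon response, rose by 1.38 in NT cells (adjusted p = 0.00843) and by 0.88 in TAM cells (adjusted p = 0.0428). CD83, a surface protein of activated immune cells, rose by 2.07 in NT cells (adjusted p = 0.0344), from 0.48 and 0.53 to 1.97 and 2.28 FPKM, and its value in TAM cells was 1.35 (adjusted p = 0.12). With rows of 1 symbol summed, 15 targets fell and 6 rose in NT cells, against 24.1% and 23.5% of all genes in that fit, and 17 fell and 6 rose in TAM cells, against 23.5% and 20.4%. Between TAM and NT cells with DMSO, 4 of the 26 targets tested were higher and 1 lower, against 3.46% and 3.39% of all genes. With rows summed, 8 were higher and 3 lower, where 5.16% of all genes were higher and 5.59% lower. How many of the 31 targets the summed fit tested was not counted.

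Of 18 other inhibitors and negative regulators, all tested, 8 fell in NT and 9 in TAM cells and none rose. BCL3, an atypical IκB protein that binds p50 and p52 dimers in the nucleus, fell by 4.42 in NT cells (SE 0.34, adjusted p = 0.000348), from 57.69 and 43.80 FPKM to 3.14 and 1.63. In TAM cells it fell by 4.05 (SE 0.309, adjusted p = 0.0004), from 191.33 and 176.07 to 13.83 and 9.07 FPKM. NFKBID, another nuclear IκB protein, fell by 2.07 in NT cells (adjusted p = 0.00659) and fell by 1.96 in TAM cells (adjusted p = 0.00798). The medians were -0.58 and -0.71.

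Of 31 kinases, adaptors and receptors upstream, 29 were tested, of which 12 fell and 3 rose in NT cells and 12 fell and 2 rose in TAM cells, with medians of -0.71 and -0.79. TNFRSF1A, the main TNF receptor, fell by 1.87 in NT cells (SE 0.229, adjusted p = 0.00147), from 55.52 and 52.94 FPKM to 18.80 and 11.19. In TAM cells it fell by 2.94 (SE 0.237, adjusted p = 0.000449), from 91.45 and 78.80 to 10.55 and 12.38 FPKM. TAB1, an activator of the TAK1 kinase, fell by 1.80 in NT cells (adjusted p = 0.00117) and fell by 1.5 in TAM cells (adjusted p = 0.00245). MYD88, the adaptor of Toll-like and interleukin-1 receptors, fell by 1.79 in NT cells (adjusted p = 0.000652) and fell by 2.26 in TAM cells (adjusted p = 0.000387). RIPK1, a kinase of the TNF receptor complex, rose by 0.89 in NT cells (adjusted p = 0.00287) and by 1.0 in TAM cells (adjusted p = 0.00201), on 1 of its 2 rows. CD40, a receptor of the non-canonical pathway, rose by 1.91 in NT cells (adjusted p = 0.0315) from 0.23 and 0.38 FPKM to 0.96 and 1.38, with 0.46 (adjusted p = 0.491) in TAM cells. IRAK4, a kinase downstream of MYD88, rose by 0.78 in NT cells (adjusted p = 0.00569) and by 0.90 in TAM cells (adjusted p = 0.00368).

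Of 19 partner factors and coactivators, 4 fell and 4 rose in NT cells and 4 fell and none rose in TAM cells, with medians of 0.00 and -0.04. The NT counts and the falls in TAM cells were near the shares of all genes. CEBPB, a bZIP factor that cooperates with NF-kB at cytokine genes, fell by 1.32 in NT cells (adjusted p = 0.00935) and fell by 2.76 in TAM cells (adjusted p = 0.000827). CUL1, a scaffold of the ligase that targets IκB, fell by 1.04 in NT cells (adjusted p = 0.0041) and fell by 0.93 in TAM cells (adjusted p = 0.00706). SP1 fell by 1.49 in TAM cells (adjusted p = 0.0224), with -0.88 (adjusted p = 0.1) in NT cells. RPS3, a ribosomal protein, rose by 0.62 in NT cells (adjusted p = 0.0335), with 0.23 (adjusted p = 0.348) in TAM cells.

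**Figure D5:**
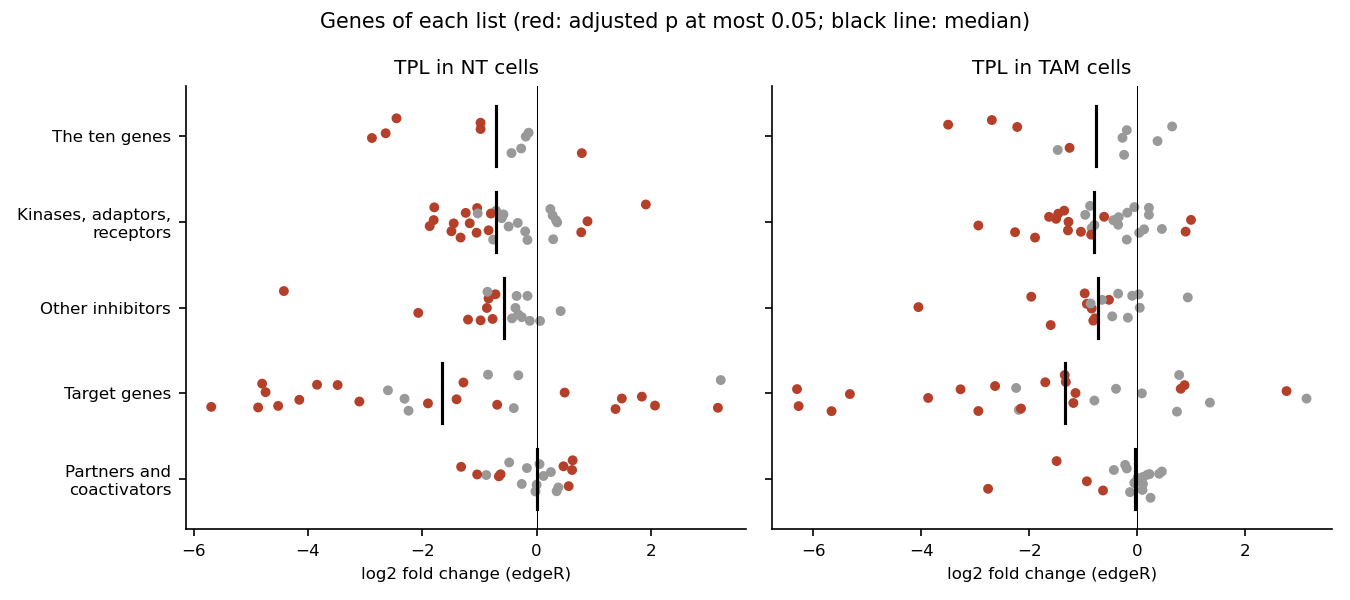
Log2 fold change from edgeR (horizontal axis) of the 10 genes and of each tested gene of the 4 lists, for TPL in NT and in TAM cells, red where the adjusted p is at most 0.05, with a black line at each median. The target genes spread widely in both directions, and those that passed reach from CXCL1 at -5.69 to GADD45B at 3.17 in NT cells, and the partners and coactivators centre on 0.00 and -0.04.

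The genes whose levels followed those of 4 of the genes were sought among 8599 genes with a mean of at least 5 FPKM, by Pearson's r of log2(FPKM + 1) over the 8 libraries, which include the TPL effect in every case. For NFKBIA they were THEM6, CTDSP1 and METTL5, each with r = 0.996. For TNFAIP3 they were FARSA, GAS2L1 and RGS19, each with r = 0.997. For RELA they were MCL1 with 0.992 and SP2 and CASC3 with 0.990. For the NFKB1 row named by the gene ID, which holds all listed NFKB1 reads in TAM replicate 1 and a part of them in every other library, the values were only 0.821 for ZNF33B, 0.812 for a row of WDR77 named by an accession and 0.810 for GARRE1.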

How the data were processed

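The 10 genes and all gene lists were chosen with earlier results of these data known. From poly-A RNA, the authors mapped reads onto reference genes with Bowtie2 and deposited expected counts and FPKM that RSEM estimated for each library. Genes without a read are not listed there and were taken as 0. The authors called RNAPII peaks on hg19 with MACS (1.4.2 in the submitters' processing notes) and deposited peaks over start sites. After rounding, the expected counts went into the quasi-likelihood test of edgeR 4.0.16 under R 4.3.3 (TMM, filter on low counts, 4 groups in 1 fit, 16948 genes, Benjamini-Hochberg adjustment over all). With 2 biological replicates per group, p-values measure the spread between these cultures. The alternatives were DESeq2 1.42.0, limma 3.58.1 on log2(FPKM + 1) and log2(FPKM + 0.1), 4 other scalings, 2 other filters, the study's thresholds, a replicate block, 2 groups only, each library left out and, added after seeing the data, rows of 1 symbol summed.

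Main start sites are those of GENCODE canonical transcripts placed on hg19. Promoter sequences come from RefSeq (GRCh38.p14) and were placed on hg19 by exact match. The genes named were the 10, from each list the 2 largest rises and falls per TPL comparison that passed with a mean of at least 1 FPKM, and for 4 of the 10 the 3 genes most alike. A gene that this rule names is not reported here. Scripts were tested on simulated data. The read depth of the ChIP samples was not used here.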

Additional observations from a re-analysis of the deposited data

How the results depend on the processing

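The falls of NFKBIA, TNFAIP3 and NFKBIZ with TPL passed an adjusted p of 0.05 in both states under every alternative run, 21 for each. The count of genes changed by TPL was 3 (NT cells) and 2 (TAM cells) at the study's thresholds, which are stricter by construction, and lay between 3 and 6 in NT cells when 1 library was left out, with 3 without NT replicate 2. Between TAM and NT cells the count was 1 with equal GAPDH, 10 counts in every library, 2 groups only, limma at either pseudocount, or rows of 1 symbol summed, 2 with DESeq2, and 0 to 1 with a library left out. For TAM + TPL against NT + TPL it was 1 with equal GAPDH and with DESeq2, and for the difference of the TPL effects 1 with DESeq2. The causes were not tested. The peak counts did not move by over 1.5 times when a peak within 1 kb or any annotated start was accepted.

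Whether same-numbered replicates of different groups were handled together is not known here. Correlations over genes of same-numbered deviations lay between -0.135 and 0.0501. With 2 libraries a group gives a single deviation per gene, so these values do not settle it. With a replicate block, 6 genes changed with TPL in NT and 4 in TAM cells, and 0 in each other comparison.

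Among single genes, 973 of the values under alternatives kept direction and call, 22 newly passed, 14 no longer passed and 30 changed sign, none of these past the threshold in the edgeR fit. Upper quartile scaling moved the median of all genes to 0.31 in NT and 0.29 in TAM cells. Relative to that shift, NFKB1 at 0.04 and NFKBIE at 0.08 in NT cells, and RELB at 0.05 and NFKBIB at 0.00 in TAM cells, stayed below the median gene. Equal GAPDH moved the median to -0.26 and -0.07 with TPL and to -0.50 for TAM against NT, where RELA was at -0.45 and TNFAIP3 at -0.33. It also gave -0.07 for NFKB1 in TAM + TPL against NT + TPL and 0.00 for TNFAIP3 in the difference of the TPL effects. With rows summed, NFKB1 was at -0.07 for TAM against NT and at -0.15 for TAM + TPL against NT + TPL. With 1 library left out, NFKB1 lay between -0.65 and 0.46 (TPL in NT), -2.23 and 0.15 (TPL in TAM), -0.21 and 2.17 (TAM against NT), -0.17 and 0.44 (TAM + TPL against NT + TPL) and -2.03 and 0.35 (difference). The same ranges were -0.28 to 0.01 for NFKBIE (TPL in NT), -0.09 to 0.16 for RELA and -0.38 to 0.22 for REL (TAM against NT). For TAM + TPL against NT + TPL they were -0.49 to 0.14 for RELA, -0.47 to 0.10 for NFKBIB, -0.02 to 0.59 for NFKBIZ and -0.25 to 0.12 for TNFAIP3. For the difference they were -0.55 to 0.08 for RELA and -0.23 to 0.34 for NFKBIB.

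With 2 libraries per group and the depth given above, low genes such as NFKBIE carry wide intervals. A group left with 1 library was assumed to vary like the others.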
